A study of Mus musculus with 6 samples.

Results

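The genes described here encode mitochondrial proteins that low oxygen is known to switch and the receptors that mark mitochondria for removal by autophagy (mitophagy). They are 10 genes chosen by name, Bnip3, Bnip3l, Fundc1, Ndufa4, Ndufa4l2, AA467197, Cox4i1, Cox4i2, Higd1a and Lonp1, on an array that holds probe sets of a single symbol for 18193 genes, Bnip3l not among them. All probe sets carrying 1 of these symbols in the array annotation were taken, 16 of 45037 that are not controls. Glomeruli, the filtering units of the kidney, came from 3 mice in which a podocin-Cre transgene (Pod-Cre) had excised a floxed Vhl gene in podocytes, the epithelial cells that wrap the glomerular capillaries, and from 3 littermates labelled wild-type controls. All 6 mice were female and 6 weeks old. The parents of the litters carried a single copy of Pod-Cre and were homozygous for the floxed Vhl locus. By descent from such parents the controls would carry floxed Vhl on both copies. The labels call them wild-type and do not state their alleles, nor whether they carried Pod-Cre. The deleted mice had been picked because their urinary albumin, sampled at 4 weeks, did not exceed the mean of wild-type littermates. The podocin promoter drives Cre in podocytes, while whole glomeruli also hold endothelial, mesangial and parietal cells, and in such a mixture fewer cells of a type and less RNA per cell cannot be told apart.

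Vhl protein marks the hypoxia-inducible factors (HIF) for destruction, so its loss leaves HIF active at normal oxygen. HIF is known to turn cells from respiration to glycolysis, in part by exchanging subunits of the respiratory chain and by inducing receptors that deliver mitochondria to autophagosomes. Bnip3, Bnip3l (also called Nix) and Fundc1 encode such receptors of the outer mitochondrial membrane. Ndufa4, Cox4i1 and Cox4i2 encode subunits of cytochrome c oxidase, complex IV of the chain, Ndufa4l2 and AA467197 encode relatives of Ndufa4, Higd1a encodes a small inner membrane protein that binds complex IV, and Lonp1 encodes a protease of the mitochondrial matrix.

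Median signals of the 6 arrays ran from 94.6 to 107.5 at a common 2% trimmed mean of 500. As a sign of RNA quality, the 3′ over 5′ ratio was 0.773 to 0.829 for the Gapdh controls and 1.30 to 1.38 for the actin controls. With 3 arrays a group, precision is limited by their number. The Vhl signal on its brighter probe set was 612, 619 and 606 in Vhl-deleted glomeruli, against 809, 665 and 707 in wild-type glomeruli, a log2 difference of -0.23 that did not pass the test (limma adjusted p = 0.943). The sources used here do not say whether the probes lie in the excised sequence. Of 14 HIF targets listed for orientation, Ankrd37 and Car9 were below the filter on low values and not tested. All 12 tested were higher in Vhl-deleted glomeruli, where 50.9% of all genes tested had a positive difference. Of these 2 passed, Egln3, a HIF prolyl hydroxylase (log2 difference 4.63), and Pfkl, a phosphofructokinase of glycolysis (1.24). Over all genes 0.0717% passed as higher. The list was drawn up with earlier results of these arrays known, so nothing is read from these counts about HIF activity. Wild-type replicate 3 stood apart in kidney tubule markers, with summed signals of 134170, 123190 and 199560 in Vhl-deleted glomeruli, against 139800, 161060 and 47787 in wild-type glomeruli. For some genes and lists below, the values with and without that array are both given. Others given with 1 value also moved without it, such as Mtfr1 (-0.29 to -0.50) and the median of endothelial markers (0.04 to 0.19). All 12 podocyte markers analysed here were above the filter on low values, 9 with a negative and 3 with a positive difference, and their median was -0.26, or -0.11 without wild-type replicate 3. None passed, and the 3 of lowest p separated the groups in both directions: Lmx1b, a podocyte transcription factor, at -0.53, Plce1, a phospholipase C, at -0.57, and Cdkn1c, a cell cycle inhibitor, at 0.48.

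AA467197 had the largest difference of the 16 probe sets. It encodes a small mitochondrial protein that RefSeq also lists as Nmes1. Its human homologue is known to take the place of NDUFA4 in complex IV during inflammation. Its signal (probe set 1434046_at) was 365, 359 and 290 in Vhl-deleted glomeruli, against 46.7, 3.27 and 7.69 in wild-type glomeruli. The 3 Vhl-deleted arrays all lay far above the 3 wild-type arrays, and wild-type replicates 2 and 3 were below 28, the 25th percentile of all signals. The mean was 338 ± 42.1 in Vhl-deleted and 19.2 ± 23.9 in wild-type glomeruli (SD, n = 3 each). The wild-type mean was carried by replicate 1, and with the other wild-type arrays near the bottom of the signal range no exact fold can be given. On the log2 scale of signal + 28, which makes changes of dim genes smaller, the difference (Vhl-deleted minus wild-type) was 3.06 (95% interval 2.24 to 3.88). It was 3.45, 2.82 and 2.91 without wild-type replicates 1, 2 and 3, and 3.00 to 3.16 without single Vhl-deleted arrays. The added value sets its size, which was 1.89 with 100 and 4.80 with 1 in place of 28. With limma and Benjamini-Hochberg adjustment over 11159 genes the adjusted p was 0.0503, just above the threshold of 0.05. The gene was number 10 of these genes by p. AA467197 passed the filter on low values into this set only through its Vhl-deleted arrays. Over all probe sets with no filter, its limma adjusted p was 0.0579 and its probe set was number 17 by p. The call depends on how the filter on low values is defined: ranking probe sets by mean linear signal, the definition run first, gave an adjusted p of 0.0453, and the mean log2 value used here was settled on after both results had been seen. AA467197 has a single probe set on the array.

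The start of AA467197 is shown for its match to the core of the DNA element that HIF is known to bind. The 300 bases run from 250 before to 50 after the start, from RefSeq in build GRCm38.p6 (chr2:122637637-122637936, plus strand). Capitals mark ACGTG and GCGTG on either strand, and ACGTG on both strands overlaps in CACGTG.
AA467197: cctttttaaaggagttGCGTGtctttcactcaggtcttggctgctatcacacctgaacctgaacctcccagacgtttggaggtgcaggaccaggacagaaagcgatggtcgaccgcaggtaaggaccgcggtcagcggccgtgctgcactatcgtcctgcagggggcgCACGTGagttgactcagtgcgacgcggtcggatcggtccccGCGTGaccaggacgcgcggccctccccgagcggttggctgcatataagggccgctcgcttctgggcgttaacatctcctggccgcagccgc
The CACGTG lies at bases -82 to -77 and the GCGTG matches begin at -234 and -41, counted from the start with no base 0.

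The annotated span of AA467197 also holds the hairpin of Mir147. Its mature 5p strand (chr2:122640814-122640837, plus strand, GRCm38.p6, RefSeq) is given because it lies within the span of the gene with the largest difference of the 10. Whether the hairpin is part of the transcript that the probe set measures was not tested. The seed, bases 2 to 8, is in capitals.
mmu-miR-147-5p: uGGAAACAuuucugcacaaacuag
The level of this miRNA was not analysed here.

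Bnip3 was higher in every Vhl-deleted array and had the largest difference of the mitophagy receptors. Its product sits in the outer mitochondrial membrane and binds LC3 proteins of the autophagosome. The signal (1422470_at) was 3962, 4118 and 4474 in Vhl-deleted glomeruli, against 1882, 2158 and 1342 in wild-type glomeruli. The lowest Vhl-deleted array stood well above the highest wild-type array. The means were 4185 ± 262 in Vhl-deleted and 1794 ± 415 in wild-type glomeruli (SD, n = 3 each). The log2 difference was 1.23 (SE 0.18, 95% interval 0.82 to 1.65), or 2.35-fold, with a limma adjusted p of 0.121. Wild-type replicate 3 was the lowest wild-type array for Bnip3 as for the tubule markers, and without it the difference was 1.04 and passed (limma adjusted p = 0.0361). Over all probe sets the same omission gave a limma adjusted p of 0.0590. With any other single array left out Bnip3 did not pass (limma adjusted p from 0.135 to 0.577 over genes).

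The Bnip3 start is shown for the same match (chr7:138909457-138909756, minus strand, GRCm38.p6, RefSeq). Capitals again mark ACGTG and GCGTG on either strand.
Bnip3: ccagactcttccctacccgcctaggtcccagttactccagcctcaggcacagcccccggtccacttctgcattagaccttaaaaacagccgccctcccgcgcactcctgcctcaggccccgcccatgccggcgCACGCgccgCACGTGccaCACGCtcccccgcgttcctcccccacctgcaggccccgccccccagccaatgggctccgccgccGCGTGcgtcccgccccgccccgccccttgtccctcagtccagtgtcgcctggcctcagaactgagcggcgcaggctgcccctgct
The CACGTG lies at bases -108 to -103, between GCGTG matches that begin at -117 and -99, and the third GCGTG begins at -35.

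Bnip3l and Fundc1 had small differences. The 3 probe sets of Bnip3l are annotated to the gene and to its pseudogene Bnip3l-ps together, so their values belong to both and are not assigned to either. The brightest (1416922_a_at) had signals of 3777, 4019 and 3731 in Vhl-deleted glomeruli, against 3074, 3607 and 3406 in wild-type glomeruli. The groups did not overlap, but the log2 difference was only 0.19 (95% interval -0.05 to 0.44, limma adjusted p = 0.984 over all probe sets). The other 2 probe sets overlapped between groups, with differences of 0.10 and 0.00.

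Fundc1 encodes a receptor whose binding to LC3 is controlled by phosphorylation in hypoxia. Its brightest probe set (1424215_at) gave 1975, 2004 and 1742 in Vhl-deleted glomeruli, against 2095, 1940 and 1885 in wild-type glomeruli. The groups overlapped, and the log2 difference was -0.05 (95% interval -0.30 to 0.20, limma adjusted p = 0.954). The probe sets 1436278_at and 1453369_a_at had differences of -0.23 and 0.03, so the 3 did not share a direction, and the intervals of all 3 included 0.

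The difference of Bnip3 exceeded that of the Bnip3l and Bnip3l-ps probe set within arrays by 1.04 on the log2 scale, and the within-array values of the groups did not overlap. Over 4 such pairs of related genes compared, the exact permutation test (two-sided, 3 arrays against 3) gave p = 0.10, the smallest it can give, and 0.133 after adjustment over the pairs.

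**Figure D1:**
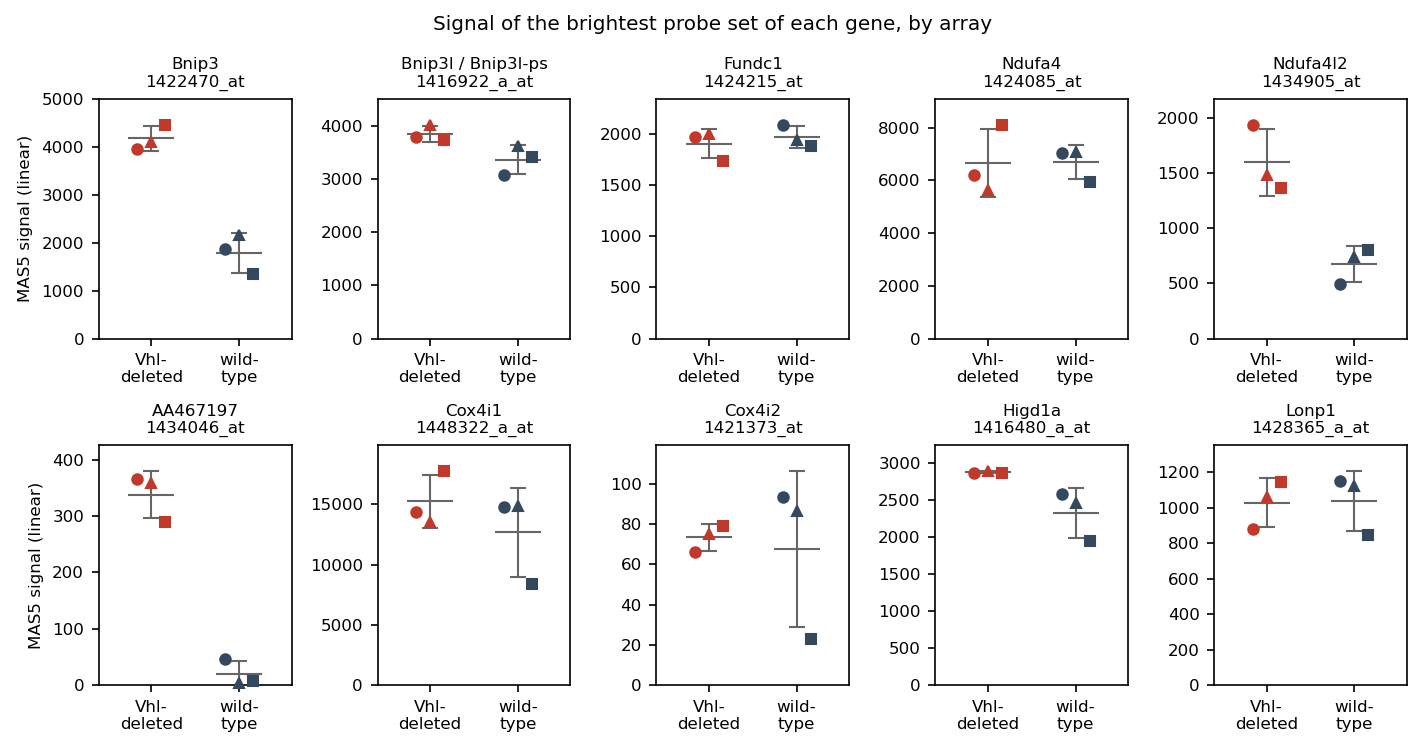
MAS5 signal (linear scale, from 0) of the brightest probe set of each of the 10 genes in the Vhl-deleted arrays (left, red) and the wild-type arrays (right, dark blue), with replicates 1, 2 and 3 as circle, triangle and square and the mean ± SD in grey. Bnip3, Ndufa4l2 and AA467197 stand clearly apart between the groups, and wild-type replicate 3 is the lowest array for Cox4i1 (8413) and Cox4i2 (23.0).

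Ndufa4l2 was higher in Vhl-deleted glomeruli while Ndufa4 was nearly level. Ndufa4l2 is a known HIF target whose product lowers the activity of complex I in hypoxic mouse cells. Its signal (1434905_at) was 1944, 1487 and 1368 in Vhl-deleted glomeruli, against 494, 744 and 804 in wild-type glomeruli. Every Vhl-deleted array lay above every wild-type array. The means were 1600 ± 304 in Vhl-deleted and 681 ± 164 in wild-type glomeruli (SD, n = 3 each). The log2 difference was 1.21 (SE 0.21, 95% interval 0.71 to 1.72), or 2.32-fold, and did not pass (limma adjusted p = 0.268).

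Ndufa4, once counted with complex I and now placed in complex IV, had signals of 6208, 5635 and 8115 in Vhl-deleted glomeruli, against 7024, 7076 and 5936 in wild-type glomeruli (1424085_at). Vhl-deleted replicates 1 and 2 lay among or below the wild-type arrays and replicate 3 above them all. The log2 difference was -0.02 (95% interval -0.39 to 0.35, limma adjusted p = 0.989), and its sign depended on single arrays. Within arrays, the difference of Ndufa4l2 exceeded that of Ndufa4 by 1.23 and that of AA467197 exceeded it by 3.08 on the log2 scale, a value that was 1.91 with 100 and 4.82 with 1 in place of 28. Both pairs separated the groups without overlap, each with exact permutation p = 0.10 (0.133 over the 4 pairs). The start of Ndufa4 is shown for comparison with AA467197 (chr6:11907401-11907700, minus strand, GRCm38.p6, RefSeq), with capitals as before.
Ndufa4: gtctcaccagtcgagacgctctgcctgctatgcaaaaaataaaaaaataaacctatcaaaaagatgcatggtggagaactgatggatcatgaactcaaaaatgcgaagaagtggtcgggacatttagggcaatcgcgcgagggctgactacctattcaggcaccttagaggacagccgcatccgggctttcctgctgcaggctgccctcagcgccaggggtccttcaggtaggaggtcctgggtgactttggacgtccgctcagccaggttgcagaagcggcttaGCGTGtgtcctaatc
It holds no ACGTG on either strand and a single GCGTG, which begins at base 36 after the start.

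Neither Cox4 isoform separated the groups. In cultured cells HIF is known to induce Cox4i2 and, through the protease Lonp1, to remove the Cox4i1 protein. Cox4i1 (1448322_a_at) had signals of 14390, 13576 and 17764 in Vhl-deleted glomeruli, against 14792, 14848 and 8413 in wild-type glomeruli. The groups overlapped, and the low wild-type value was that of replicate 3. The log2 difference was 0.30 (95% interval -0.26 to 0.86, limma adjusted p = 0.943) with all arrays and 0.03 without wild-type replicate 3.

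Cox4i2 was dim and fell below the filter of the gene test, at the 43.9th percentile of probe sets. Its signals (1421373_at) were 66.0, 75.0 and 78.9 in Vhl-deleted glomeruli, against 93.4, 86.2 and 23.0 in wild-type glomeruli. Here too wild-type replicate 3 was the array apart, and the other wild-type arrays lay above all Vhl-deleted arrays. The log2 difference was 0.18 (95% interval -0.66 to 1.02, limma adjusted p = 0.986 over all probe sets), and -0.22 without that array. The within-array difference of Cox4i2 over Cox4i1 was -0.12, with overlapping groups (exact permutation p = 0.40).

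Lonp1 (1428365_a_at) had signals of 881, 1062 and 1146 in Vhl-deleted glomeruli, against 1150, 1121 and 844 in wild-type glomeruli. The groups overlapped fully, and the log2 difference was -0.01 (95% interval -0.39 to 0.37, limma adjusted p = 0.996). Its start holds the same CACGTG as those of Bnip3 and AA467197, although its signal was nearly level, and is shown for that reason (chr17:56626854-56627153, minus strand, GRCm38.p6, RefSeq).
Lonp1: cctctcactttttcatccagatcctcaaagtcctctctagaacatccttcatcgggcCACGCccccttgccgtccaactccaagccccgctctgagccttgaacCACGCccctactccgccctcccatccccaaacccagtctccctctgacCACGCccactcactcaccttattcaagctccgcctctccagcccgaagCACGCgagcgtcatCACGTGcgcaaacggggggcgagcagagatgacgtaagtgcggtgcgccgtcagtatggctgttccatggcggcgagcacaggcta
The CACGTG of Lonp1 lies at bases -36 to -31. Of the 10 genes 6 had such a window in the RefSeq table, with Bnip3l, Ndufa4l2, Cox4i1 and Cox4i2 not among them. Bnip3, AA467197, Lonp1 and Higd1a held ACGTG, in Higd1a at bases 44 to 48 after the start, and Ndufa4 and Fundc1 did not. Of all 32851 windows of this length 19.6% held ACGTG, 32.4% GCGTG and 7.15% CACGTG, and a match in letters does not show that HIF binds there.

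Higd1a, whose product favours cell survival in low oxygen, had a small difference in the same direction on all 3 of its probe sets. The brightest (1416480_a_at) gave 2864, 2890 and 2864 in Vhl-deleted glomeruli, against 2583, 2460 and 1946 in wild-type glomeruli. The groups did not overlap, the Vhl-deleted arrays lay very close together, and wild-type replicate 3 was the lowest array. The log2 difference was 0.31 (95% interval 0.01 to 0.61, limma adjusted p = 0.943), and 0.19 without wild-type replicate 3. The probe sets 1416481_s_at and 1448359_a_at had differences of 0.10 and 0.21 with overlapping groups.

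**Figure D2:**
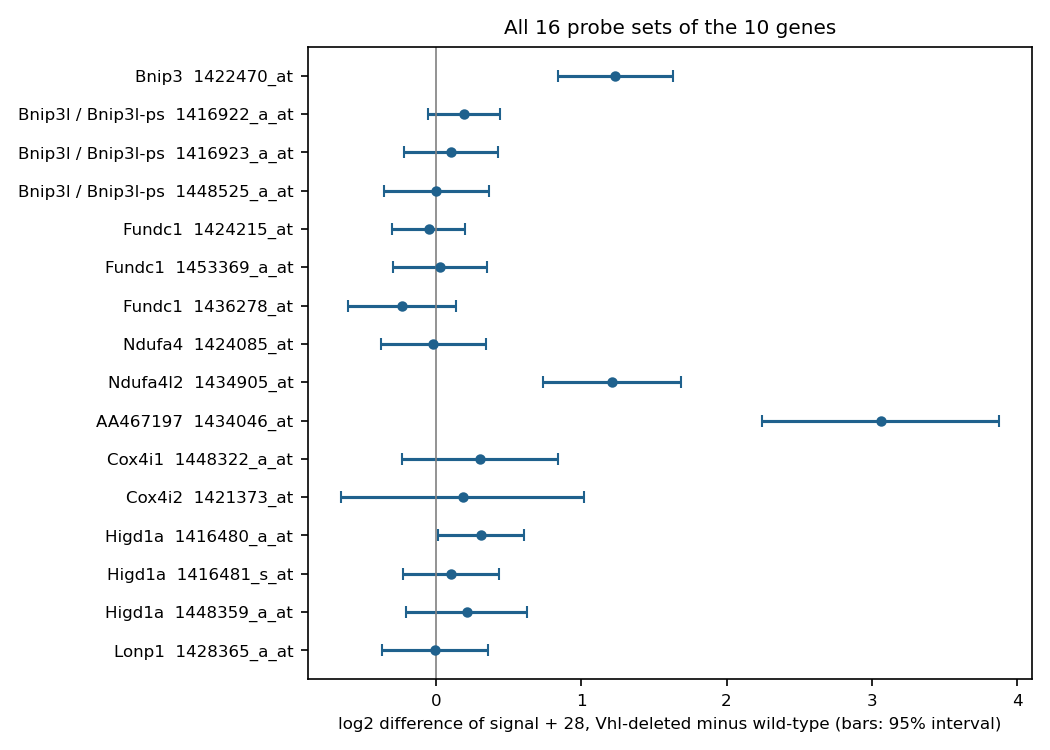
Log2 difference of signal + 28, Vhl-deleted minus wild-type (horizontal axis), with 95% intervals from limma for each of the 16 probe sets of the 10 genes. The intervals of Bnip3, Ndufa4l2, AA467197 and the brightest Higd1a probe set lie above 0, and the other 12 include 0.

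None of the 8 genes that entered the gene test passed the threshold, where 0.0717% of the 11159 genes passed as higher and 0.00896% as lower in Vhl-deleted glomeruli. Tested one by one without a filter, 0 of the 16 probe sets passed with limma over 45037 probe sets, where 0.0333% passed as higher and 0.00222% as lower. At an unadjusted p under 0.05, 4 of the 16 were found, against 4.53% of all probe sets. The groups did not overlap in 5 of the 16, all higher in Vhl-deleted glomeruli, against 4.81% of all probe sets in that direction, and in 0 of the 16 in the lower direction, against 4.97%. The genes had been picked with earlier results of these arrays known, so nothing is read from these shares about the genes as a set.

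Fits that allow for the uneven arrays gave other calls for the same genes. With the tubule marker level of each array as a covariate, AA467197 (3.03), Bnip3 (1.07) and Ndufa4l2 (1.32) passed over all genes, with limma adjusted p of 0.0220, 0.00376 and 0.0491, where 0.269% of all genes passed as higher. With arrays weighted by quality the same 3 genes passed, and 0.269% of all genes did so as higher. These calls rest on the filtered genes, and AA467197 entered them only through its Vhl-deleted arrays. Over all probe sets with no filter, Bnip3 alone of the 3 passed with the tubule covariate (limma adjusted p = 0.00873), where 0.0600% of probe sets passed as higher, while AA467197 was at 0.0685 and Ndufa4l2 at 0.116. With array weights none of the 3 passed over all probe sets (0.0561, 0.0680 and 0.119 for AA467197, Bnip3 and Ndufa4l2), where 0.0400% did as higher. In both fits over genes Cox4i1 was near 0, at 0.06 and 0.03.

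Markers of other cells differed beside these genes. Leukocyte markers were higher in 12 of 13 tested, with a median log2 difference of 0.47 and summed signals of 11080, 10224 and 14622 in Vhl-deleted glomeruli, against 8852, 6862 and 6185 in wild-type glomeruli, without overlap. Cd74, H2-Eb1 and H2-Aa, genes of antigen presentation by MHC class II, were the 3 of lowest p, at 1.02, 0.99 and 0.94, and none passed. A further 6 leukocyte markers (Itgam, C1qa, C1qb, C1qc, Cd3e and Cd79a) were below the filter and did not share a direction. C1qa, a complement gene of macrophages, was at 10.3, 4.30 and 42.0 in Vhl-deleted glomeruli, against 6.12, 8.03 and 9.03 in wild-type glomeruli. Cd3e, a T cell receptor subunit, was at 7.40, 12.9 and 11.6 in Vhl-deleted glomeruli, against 13.7, 83.6 and 16 in wild-type glomeruli. The groups overlapped for C1qa, while for Cd3e every Vhl-deleted array was the lower. With the leukocyte marker level as a covariate AA467197 was at 2.49, Bnip3 at 0.90 and Ndufa4l2 at 1.77, none past the threshold (limma adjusted p = 0.874, 0.874 and 0.314), and this covariate itself differed between the groups.

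Mesangial and smooth muscle markers were higher in 9 of 10, with a median of 0.18 and summed signals of 61555, 58610 and 62995 in Vhl-deleted glomeruli, against 48078, 54847 and 56922 in wild-type glomeruli. Myl9 and Tagln, genes of contractile cells, were at 0.40 and 0.53, and Pdgfrb, a receptor of mesangial cells, at 0.22, none past the threshold. These summed signals also did not overlap, but the mean log2 values of the list did. They were 11.459, 11.47 and 11.642 in Vhl-deleted glomeruli, against 11.141, 11.396 and 11.471 in wild-type glomeruli. Of these markers 2, Myl9 and Tagln, separated the groups. The part of the leukocyte or the mesangial list in the results for Ndufa4l2 and AA467197 was not tested beyond these values. Tubule markers were higher in 17 of 17, with a median of 0.49 that became -0.04 without wild-type replicate 3, and Kap, Fbp1 and Cubn, the 3 of lowest p, were at 0.73, 0.87 and 0.83. Parietal epithelial markers were likewise positive in 5 of 5, with a median of 0.35 that became -0.07 without that array, and with Vcam1 at 0.57, Cd44 at 0.35 and Cldn1 at 0.22. Endothelial markers had a median of 0.04 with 7 of 11 positive, and Kdr, Emcn and Pecam1 were at 0.28, 0.17 and -0.21. The erythroid markers Alas2 and Slc4a1 were at -0.40 and 0.02. Summed signals of these 4 lists overlapped between the groups, and none of their genes passed.

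**Figure D3:**
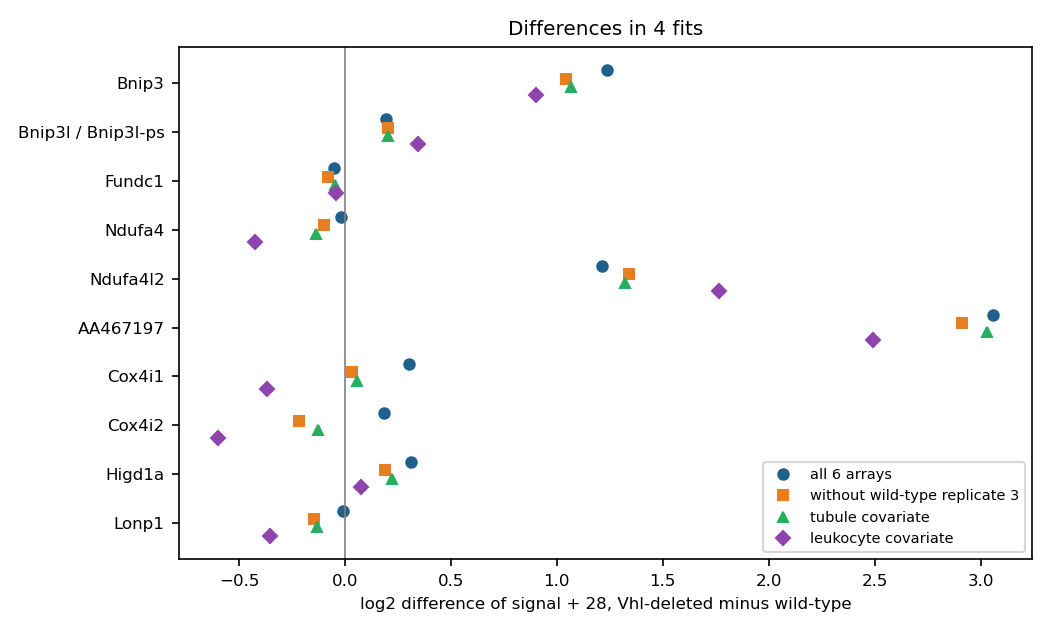
Log2 difference of signal + 28, Vhl-deleted minus wild-type, of the 10 genes with all 6 arrays (circles), without wild-type replicate 3 (squares), with the tubule markers as a covariate (triangles) and with the leukocyte markers as a covariate (diamonds). AA467197, Bnip3 and Ndufa4l2 stay between 0.90 and 3.06 in all 4, while Cox4i1 goes from 0.30 with all arrays to 0.03 without wild-type replicate 3 and -0.37 with the leukocyte covariate.

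The wider machinery of mitophagy had differences near those of all genes. Of 26 receptors, LC3 relatives and autophagy genes tested, 9 had a positive and 17 a negative difference, none passed in either direction, and the median was -0.02, against 0.00 over all genes. Rb1cc1, a scaffold of the autophagy initiation kinase, was at -0.29, and Atg5, which takes part in LC3 conjugation, at -0.22. Pink1, the kinase that marks damaged mitochondria for the ubiquitin route, was at -0.62 (95% interval -1.30 to 0.06, limma adjusted p = 0.943). Its signal was 1181, 1093 and 2454 in Vhl-deleted glomeruli, against 2215, 2308 and 2304 in wild-type glomeruli. Vhl-deleted replicates 1 and 2 lay far below the wild-type arrays, and replicate 3 lay above them.

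Genes of mitochondrial fusion and fission had a median of -0.01 over 11 tested, 5 positive and none past the threshold. Mtfr1, a fission regulator, was at -0.29, Mfn1, a mitofusin, at 0.15, and Fis1, a fission adaptor, at 0.05.

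Other subunits and assembly factors of complex IV had a median of 0.15 over 24 tested, 16 of them positive and none past the threshold. Cox5a and Cox6b1, both subunits, were at 0.34 each, and Cox17, a copper chaperone of assembly, at 0.20. The NDUFA subunits of complex I had a median of 0.14 over 12 tested, 11 of them positive, with Ndufa10 at 0.27, Ndufa1 at 0.20 and Ndufa7 at 0.16. Both shifts rested on wild-type replicate 3, since without it each median was -0.01. The Cox5a signals show the same array apart: 16301, 14086 and 16087 in Vhl-deleted glomeruli, against 14585, 14935 and 8336 in wild-type glomeruli. In this Cox5a resembled Cox4i1.

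Mitochondrial proteases and chaperones beside Lonp1 had a median of 0.08 over 17 tested, 15 positive and none past the threshold, and -0.01 without wild-type replicate 3. Clpx, the ATPase partner of the ClpP protease, was at 0.53 (95% interval -0.19 to 1.25) and at 0.14 without that array, Pmpcb, part of the presequence-processing peptidase, at 0.21, and Htra2, a protease of the intermembrane space, at 0.23.

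**Figure D4:**
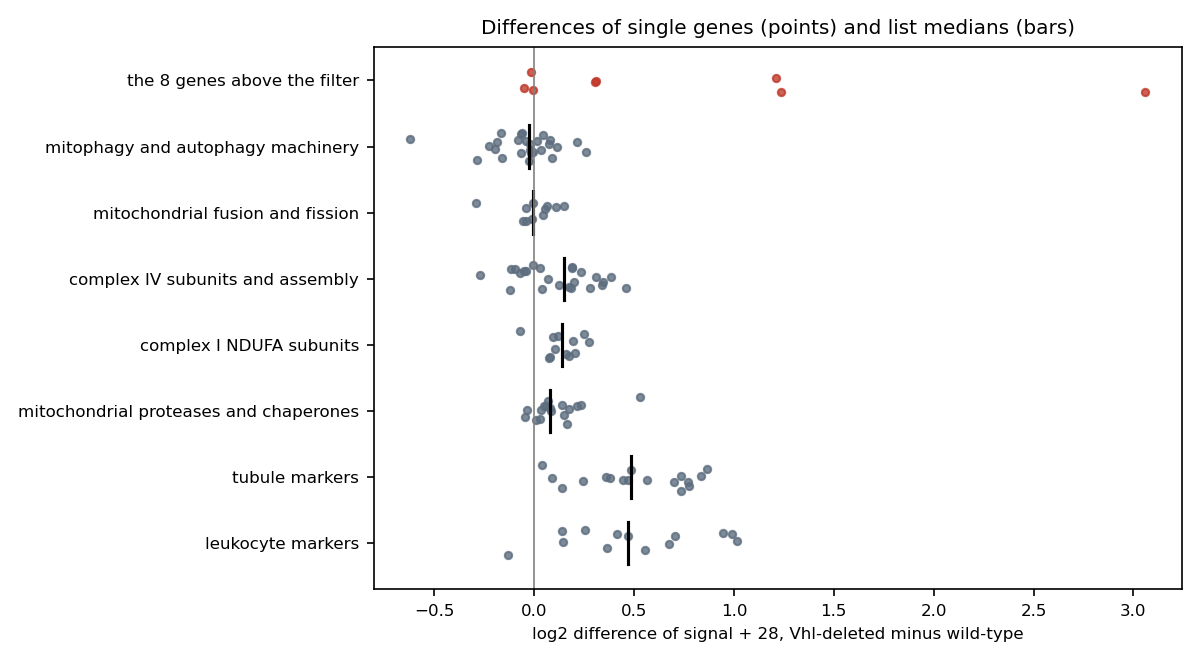
Log2 difference of signal + 28, Vhl-deleted minus wild-type, of single genes (points) in the 8 described genes above the filter, in 5 lists of mitochondrial genes and in tubule and leukocyte markers, with black bars at the list medians. AA467197, Bnip3 and Ndufa4l2 lie above every gene of the 5 mitochondrial lists, whose medians run from -0.02 to 0.15.

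Across the 6 arrays the genes whose log2 values ran most like Bnip3 were Sema6d, Pomgnt1, Tpi1, Ldha and Peg3 (Pearson r between 0.988 and 0.992). For AA467197 they were Fabp5, Smyd1, Nlgn2, Pfkp and Edn1 (r between 0.985 and 0.996). The arrays fall into their 2 groups in these genes, so r mostly repeats the difference between the groups, and the values share the same arrays and scaling. Tpi1 and Ldha, enzymes of glycolysis, differed by 1.07 and 0.93, and Pomgnt1, an enzyme of protein glycosylation, by 0.18. Fabp5, a fatty acid binding protein, differed by 1.33, Smyd1, a muscle methyltransferase, by 1.40, and Edn1, the endothelin precursor, by 0.52. None of these genes passed the threshold over all genes.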

How the data were processed

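The deposited values are intensities, MAS5 signals on a linear scale, with 1 array per mouse. MAS5 is named in the submitters' processing notes, with no version, and the values show scaling to a 2% trimmed mean of 500. The labels give the groups and call the arrays biological replicates. Of the probe sets that are not controls, 34945 had 1 symbol in the array annotation, 932 several and 9160 none, and 34741 were matched to RefSeq by Entrez number. Values were taken as log2(signal + 28). The gene test kept the upper 50% of probe sets by mean log2 value (a signal of about 96), then those with 1 symbol and the brightest per gene, 11159 genes. In all, 6 definitions of this filter were run, and the one used was chosen after their calls had been seen, to follow an earlier processing of these data. Of the 10 genes 8 were tested: Cox4i2 was below the filter, no Bnip3l probe set has 1 symbol, and AA467197 passed only through its Vhl-deleted arrays. A second test took all 45037 probe sets that are not controls. Both used limma 3.58.1 in R 4.3.3 (eBayes with an intensity trend, Benjamini-Hochberg adjustment, threshold 0.05). The gene test was checked on simulated data whose noise was independent between arrays and genes. That check cannot show how the test behaves with an array apart, such as wild-type replicate 3. Named genes are the 10 above, from each list those past the threshold or else the 3 of lowest p, and the 5 most like Bnip3 and AA467197. C1qa and Cd3e were named after their values were seen. The genes and lists were chosen with earlier results of these data known.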

Additional observations from a re-analysis of the deposited data

How the results depend on the processing

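Over the alternatives in which they were tested, AA467197, Bnip3 and Ndufa4l2 kept a positive difference (1.89 to 4.80, 0.90 to 1.38 and 1.01 to 1.77), while their limma adjusted p ran from 0.0143 to 0.874, 0.00376 to 0.874 and 0.0283 to 0.992. With the filter ranked by mean linear signal, the definition run first, 15 of 11168 genes passed, among them 1 of the 10, AA467197 (0.0453). The other 4 filter definitions, like the mean log2 value used here, were added after seeing the data. With control probe sets in the percentile, 15 of 11167 genes passed by linear signal (AA467197 at 0.0453) and 9 of 11159 by log2 value (0.0503). A percentile over probe sets with 1 symbol gave 10 of 10232 genes by linear signal (AA467197 at 0.0502) and 9 of 10224 by log2 value, where AA467197 was below the filter, as it was with the upper 30%. Of the 10 genes 1, AA467197, also passed with quantile normalization, median scaling, a pseudocount of 100 and robust variance, and 3 passed with array weights and with the tubule covariate. When single arrays were left out 0 to 1 passed, AA467197 without wild-type replicate 1 (0.0227) and Bnip3 without wild-type replicate 3. The count of all genes, 9, became 33 with array weights, 33 with the tubule covariate and 3 with the leukocyte covariate, and 1 to 12 when single arrays were left out (1 and 4 without Vhl-deleted replicates 1 and 2, 5 without wild-type replicate 2). Deviations from the group means correlated at -0.02, -0.41 and -0.513 between arrays of the same replicate number. Between arrays of unlike number they ran from -0.378 to 0.581. With 3 arrays a group these values cannot show whether mice of the same number were paired by litter. With the replicate block 1 gene and 0 of the 10 passed. Of the 16 probe sets 1 passed with median scaling, a pseudocount of 100 and robust variance (AA467197) and with the tubule covariate (Bnip3), and 0 to 1 when single arrays were left out. Signs turned in genes near 0 when single arrays were left out: Ndufa4 ran from -0.1699 to 0.0921, Lonp1 from -0.1456 to 0.0981, Fundc1 from -0.0866 to 0.0129 and Cox4i2 from -0.2193 to 0.4066. Lonp1 was at 0.0068 with quantile normalization, Cox4i1 at -0.369 with the leukocyte covariate, Cox4i2 at -0.0396 with array weights and at -0.1264 and -0.5996 with the tubule and leukocyte covariates, and the Cox4i2 minus Cox4i1 difference at 0.0444 with a pseudocount of 1. The cause of these moves was not tested. Wild-type signals of AA467197 lay near the dim end of the array, and its difference was 1.89 with a pseudocount of 100 and 4.80 with 1.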
